A study of Mus musculus with 9 samples.

Results

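The Notch receptors, ligands and target genes were followed in mouse alveolar rhabdomyosarcoma, a soft-tissue tumour that expresses skeletal muscle genes. The members were 10 genes in 3 roles: the receptors Notch1, Notch2, Notch3 and Notch4, the ligands Jag1, Jag2 and Dll1, and the target genes Hes1, Hey1 and Heyl. Every probe set whose only gene symbol in the platform annotation was one of these genes was kept, which gave 10 of the 12393 genes with a probe set of their own and 18 of the 22690 probe sets on the array. There were 8 probe sets for receptors, 5 for ligands and 5 for targets. Total RNA from 6 tumours and 3 wild-type skeletal muscles was each read on 1 Affymetrix array. The genotype of the animals with tumours, the strain, age and treatment of all animals, the muscles sampled, and whether the samples came from separate animals are not stated in the labels. P-values therefore measure the spread between these samples. The comparison asks how the tumours differ from normal muscle.

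Notch receptors are single-pass membrane proteins that are bound by Jagged and Delta-like ligands on neighbouring cells. Ligand binding leads to cleavage by ADAM proteases and then by gamma-secretase, and the freed intracellular domain enters the nucleus, where it joins the DNA-binding protein RBPJ and Mastermind co-activators to switch on genes of the Hes and Hey families. In skeletal muscle the pathway is known for keeping satellite cells, the stem cells of the fibre, from differentiating. In other cells of the tissue, Notch4 is best known from endothelium and Notch3 from the mural cells of vessels.

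Values are MAS5 signals, a linear brightness in arbitrary units, after every array was scaled to one trimmed mean. Muscle 1 and muscle 3 had been deposited on a lower scale and were multiplied by 1.6995 and 3.5493. The median signal of an array then lay between 144 and 276, and signals well under it can be background. Differences are tumour minus muscle on the scale of log2(signal + 16), which understates the change of dim probe sets. Fold changes between tumours and muscles are back-transformed from these differences and are not ratios of the mean signals. A probe set was called where limma's p-value, after Benjamini-Hochberg adjustment, was under 0.05. Of 22626 probe sets tested, 3488 were called, 1784 higher and 1704 lower, with a median difference of 0.11. Leaving out muscle 2 or muscle 3 lowered the number called to 1983 and 1700. Higher probe sets made up 51.1% of the calls. Without rescaling 4496 were called, 87.0% of them higher, around a median of 0.75.

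The markers of muscle fibres separated the groups, but tumour 1 stood between them. The summed signal of 6 fibre markers lay between 130216 and 185926 in the muscles, at 69648 in tumour 1 and between 1157 and 10835 in the other tumours. Of these markers 5 were lower in tumours, and Acta1, skeletal alpha-actin, was at the threshold without passing it (adjusted p = 0.05, limma). Among 5 myoblast and satellite cell markers none was called and 0 had an unadjusted p under 0.05 (limma), where 27.3% of all probe sets passed. Myod1 lay between 282 and 1205 in the tumours. Of 6 macrophage markers 5 were higher, with sums of 6682 to 29489 in tumours and 2363 to 3264 in muscles. Of 12 endothelial markers 2 were lower and 0 higher, with sums of 1786 to 4317 and 5380 to 6504. Of 7 mural markers 3 were lower, with sums of 3333 to 14752 and 13075 to 13803. Of 6 fibroblast markers 1 was lower (sums of 10028 to 59117 and 30597 to 37022), of 3 measured Schwann cell markers 1 was lower (235 to 1618 and 754 to 1900), both measured adipocyte markers were lower (145 to 1213 and 7612 to 9761), and of 5 measured T cell markers 0 were called, also at an unadjusted p under 0.05 (212 to 1006 and 302 to 390). In such whole-tissue RNA, fewer cells of a type and less RNA per cell cannot be told apart.

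Among the Notch members a probe set of Notch2 was higher and one of Jag2 was lower in the tumours, and the other 16 were not called. Over all probe sets 7.88% were called higher and 7.53% lower, together 15.4%, so 2 calls in 18 is near the background of these arrays. At an unadjusted p under 0.05 there were 3 members, where 27.3% of all probe sets passed. The signals of tumours and muscles did not overlap for 3 members, against 19.8% of all probe sets. The median difference of the members was -0.26, and 6 of 18 were above 0. Without rescaling of the 2 muscles the median was 0.51, below the 0.75 of all probe sets, and 15 of 18 were above 0, so the balance of directions depends on the scaling.

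**Figure D1:**
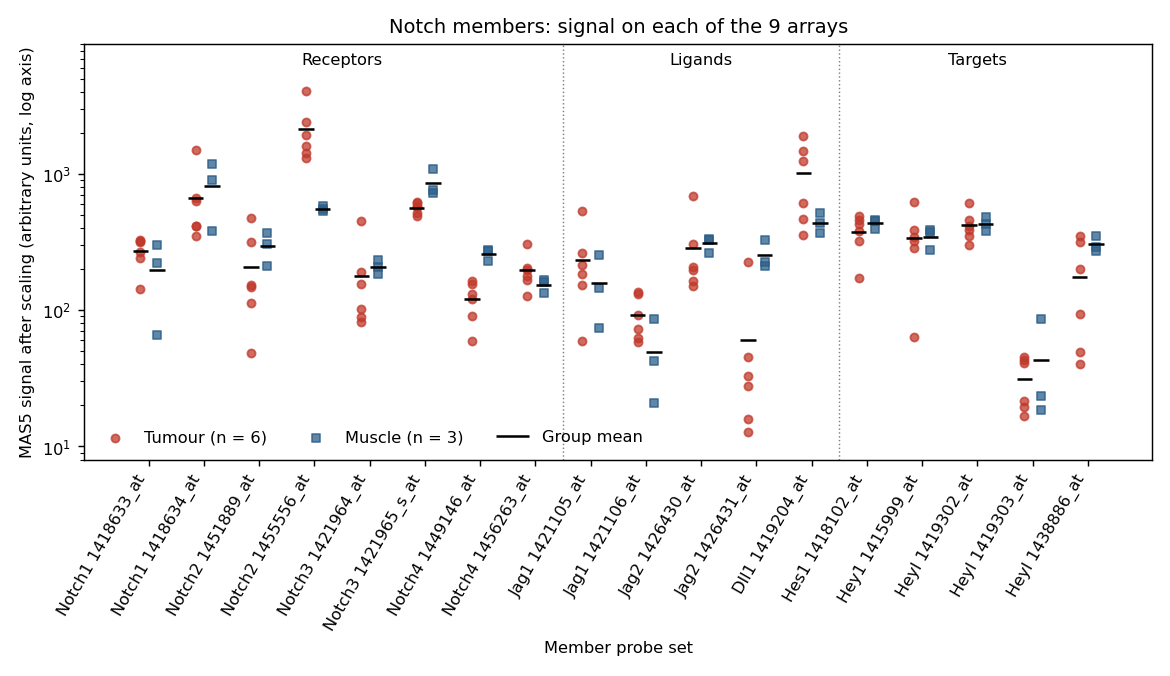
Signal of the 18 member probe sets on each array (log axis, arbitrary units after scaling); circles are the 6 tumours, squares the 3 muscles and bars the group means. The Notch2 probe set 1455556_at stands out with 1314 to 4047 in tumours and 535 to 584 in muscles.

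Among the receptors, Notch2 gave the clearest difference, but its probe sets did not move together. The probe set 1455556_at had signals of 1314, 1435, 1933, 4047, 2424 and 1618 in tumours 1 to 6 and of 550, 584 and 535 in muscles 1 to 3. All 6 tumours lay above all 3 muscles, and tumour 4 was the highest. Tumours had a mean of 2129 ± 1021 (SD, n = 6) against 556 ± 24.8 (SD, n = 3) for the muscles, a 3.47-fold rise with a log2 difference of 1.79 ± 0.37 (SE) and an adjusted p of 0.0043 (limma). Muscle 2, which needed no rescaling, was itself below every tumour.

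The second Notch2 probe set, 1451889_at, read 474, 48.4, 154, 315, 149 and 113 in tumours 1 to 6 and 369, 212 and 305 in the muscles. Tumours 1 and 4 lay among or above the muscles and the others below them. Its difference was -0.73 with a 95% interval of -1.95 to 0.49 (adjusted p = 0.47, limma). The within-array ratio of the 2 probe sets did not overlap between tumours and muscles and differed by -2.53 on the log2 scale (1451889_at over 1455556_at, two-sided exact permutation p = 0.0238, the smallest that 6 against 3 samples allow; 0.107 adjusted over 9 pairs of probe sets). When the log2 values of both were averaged the Notch2 difference was 0.53 and the call was lost (adjusted p = 0.41). Which part of the transcript each probe set reads was not examined. RNA quality, read as the signal at the 3' end of Gapdh over that at its 5' end, differed between arrays: the ratio was 1.68, 57.2 and 33.0 in muscles 1 to 3 and between 1.93 and 9.39 in tumours. The same ratio for Actb set the arrays apart differently, with 1.87, 4.06 and 4.35 in muscles 1 to 3 and 3.35 to 6.78 in tumours. The bright Notch2 probe set lay within 535 to 584 on all 3 muscles, and the part of RNA quality in its difference was not tested. Of the 6 macrophage markers 5 were higher in the tumours as well. Most of their sum was Csf1r, a growth factor receptor of macrophages, which was highest in tumour 1, at 26580, where this Notch2 probe set was lowest among the tumours. Cd68, a lysosomal protein of macrophages, was highest in tumour 4, at 697, as was this Notch2 probe set. Adgre1 was instead lowest among the tumours in tumour 4, at 981. Fcgr1, an Fc receptor, was lowest among the tumours in tumour 1, at 383, and next lowest in tumour 4, at 471. Cd14 was highest in tumour 5, at 1266, and the dim Itgam, which was not called, was highest in tumour 4, at 151. The part of other cells in the Notch2 difference was not tested.

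Notch1, a receptor known from satellite cells, was not called. Its brighter probe set, 1418634_at, read 416, 352, 634, 666, 1501 and 413 in tumours 1 to 6 and 383, 905 and 1180 in the muscles. Tumour 5 was the highest of all arrays and muscle 1 among the lowest, so the groups overlapped fully, with a difference of -0.35 (95% interval -1.37 to 0.68). Muscle 1 was also the muscle with the low Gapdh and Actb ratios. The other probe set, 1418633_at, lay between 143 and 326 in tumours and at 301, 65.8 and 223 in the muscles, with a difference of 0.59 (95% interval -0.43 to 1.61).

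Notch3 and Notch4 had probe sets that were lower in every tumour than in every muscle without passing the test. Notch3 1421965_s_at read 571, 579, 494, 616, 620 and 516 in tumours 1 to 6 and 1082, 769 and 726 in the muscles. The tumours were close to each other, with a mean of 566 ± 51.5 (SD, n = 6) against 859 ± 194 (SD, n = 3), and the difference was -0.57 ± 0.30 (SE, adjusted p = 0.25, limma). The dimmer Notch3 probe set 1421964_at ranged from 82.1 to 455 in tumours, with tumour 1 far above the rest, and from 186 to 232 in muscles. Notch4 1449146_at read 59.3, 91.5, 164, 121, 156 and 132 in tumours 1 to 6 and 276, 271 and 229 in the muscles. Its difference was -1.06 ± 0.42 (SE) with a 95% interval of -1.97 to -0.15, an unadjusted p of 0.025 and an adjusted p of 0.12 (limma). Without rescaling the Notch3 difference turned to 0.26 and the Notch4 difference was -0.29.

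The second Notch4 probe set, 1456263_at, gave 128 to 306 in tumours and 134 to 166 in muscles, a difference of 0.30 in the other direction. The within-array ratio of the 2 Notch4 probe sets did not overlap between the groups and differed by -1.36 (two-sided exact permutation p = 0.0238; 0.107 adjusted over 9 pairs). Endothelial marker sums were lower in every tumour than in every muscle, while the mural sums overlapped, with tumour 2 above every muscle. Of the 7 mural markers Rgs5, Abcc9 and Kcnj8 were lower, at -3.09, -3.30 and -2.52, and Acta2, Myh11, Cspg4 and Pdgfrb were not called, at 0.01, -0.24, -0.50 and -0.70. Their part in the Notch3 and Notch4 values was not tested.

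The ratio of 2 receptors within an array hardly depends on how the array was scaled, so it was compared for the brightest probe set of each gene. For Notch4 this was 1456263_at, with a difference of 0.30, and not 1449146_at, with a difference of -1.06. Brightness was taken over all 9 arrays. The probe set 1456263_at was the brighter in tumours (mean 197 against 121) and 1449146_at in muscles (258 against 153), so the Notch4 ratios depend on this choice. Notch2 gained on each of the other receptors. The log2 ratio of Notch1 to Notch2 was 0.41 in muscles and -1.73 in tumours, and that of Notch2 to Notch3 was -0.59 in muscles and 1.77 in tumours. The log2 ratio of Notch2 to Notch4 was 1.76 in muscles and 3.26 in tumours. In these 3 pairs tumours and muscles did not overlap, and each had an exact two-sided permutation p of 0.0238 (0.0952 adjusted over the 12 same-role pairs). The differences without rescaling were -2.13, 2.35 and 1.58. Averaging the probe sets of each gene reduced the Notch1 to Notch2 difference to -0.41 (exact permutation p = 0.333) and the Notch2 to Notch3 difference to 1.03 (0.0952), so they depend on which probe sets are read for these genes. Notch3 against Notch4 differed by -0.87 (exact permutation p = 0.0476, 0.114 adjusted), a difference that was -0.12 with averaged probe sets.

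**Figure D2:**
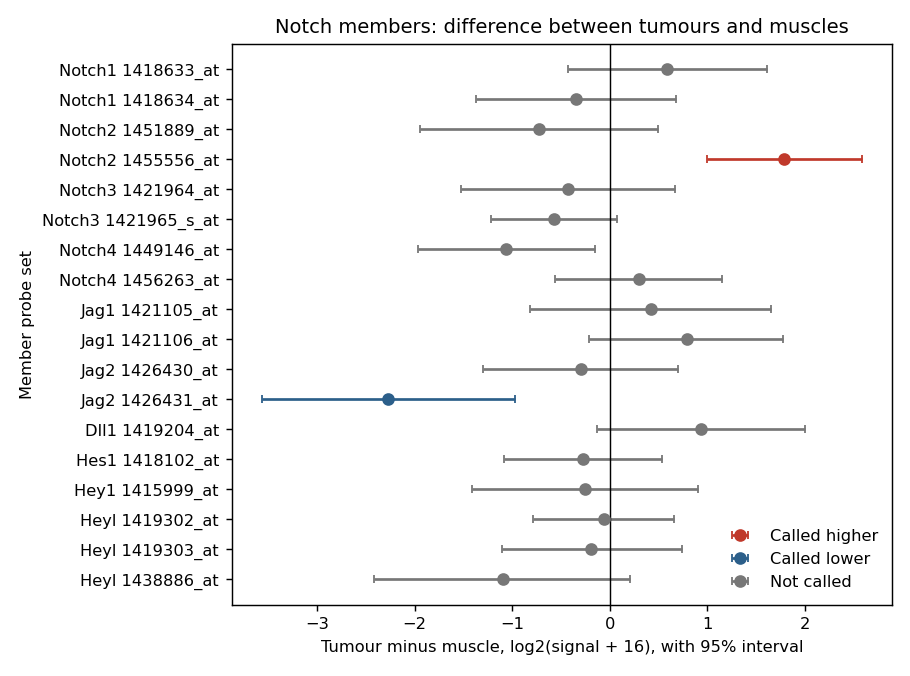
Tumour minus muscle difference of each member probe set on the log2(signal + 16) scale, with its 95% interval from the limma fit. Notch2 1455556_at is called higher at 1.79 and Jag2 1426431_at lower at -2.27, while 15 of the remaining 16 intervals include 0 and that of Notch4 1449146_at does not.

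Among the ligands, Jag2 was lower by 1 of its 2 probe sets. The probe set 1426431_at read 226, 15.9, 27.9, 45.3, 12.7 and 32.8 in tumours 1 to 6 and 213, 330 and 226 in the muscles. Tumour 1 lay within the muscles, and the other 5 tumours lay far below them. Tumours had a mean of 60.1 ± 82.2 (SD, n = 6) against 256 ± 64.1 (SD, n = 3) for the muscles, a 4.83-fold fall with a log2 difference of -2.27 ± 0.61 (SE) and an adjusted p of 0.021 (limma). The 5 low tumours were at signals that can be background. The call was lost without muscle 1, muscle 2 or muscle 3, at adjusted p of 0.055, 0.099 and 0.072, and without rescaling (-1.50, adjusted p = 0.086). Tumour 1 also had the highest fibre marker sum of the tumours, whose part in the Jag2 value was not tested.

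The brighter Jag2 probe set, 1426430_at, read 151, 165, 198, 208, 304 and 689 in tumours 1 to 6 and 336, 265 and 327 in the muscles. Tumours 1 to 4 were below the muscles, tumour 5 among them and tumour 6 above, and the difference was -0.30 (95% interval -1.30 to 0.70). With both Jag2 probe sets averaged the difference was -1.29 (adjusted p = 0.038, limma). The within-array ratio of the 2 probe sets differed by 1.97 (exact permutation p = 0.0952).

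Dll1, a Delta-like ligand, split the tumours. Its probe set 1419204_at read 617, 468, 355, 1256, 1903 and 1476 in tumours 1 to 6 and 367, 516 and 434 in the muscles. Tumours 4, 5 and 6 were above every muscle, and tumours 1, 2 and 3 were near the muscle range. Tumours had a mean of 1012 ± 625 (SD, n = 6) against 439 ± 74.6 (SD, n = 3) for the muscles, and the difference of 0.94 (95% interval -0.13 to 2.00) was not called (adjusted p = 0.25, limma). It was called without rescaling, at 1.75 and an adjusted p of 0.028. The labels do not separate tumours 4 to 6 from the others, and the groups seen here were not compared further.

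Jag1 was not called by either probe set. The probe set 1421105_at read 538, 59.2, 183, 261, 154 and 214 in tumours 1 to 6 and 255, 146 and 74.1 in the muscles, with tumour 1 highest and tumour 2 lowest. The difference was 0.42 (95% interval -0.82 to 1.65). The dim probe set 1421106_at lay between 58.6 and 136 in tumours and between 20.9 and 85.7 in muscles, with a difference of 0.79 (95% interval -0.21 to 1.78). Of the 3 ligand pairs, Jag2 lost against Dll1, with a difference of -1.24 in the log2 ratio of the brightest probe sets (exact permutation p = 0.0476, 0.114 adjusted over 12 pairs). The ratios of Jag1 to Jag2 and of Jag1 to Dll1 had exact permutation p of 0.405 and 0.5. With averaged probe sets the log2 ratio of Jag1 to Jag2 differed by 1.89 (exact permutation p = 0.0238, not adjusted), so it depends on which probe sets are read.

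None of the 5 target gene probe sets was called by limma, 0 had an unadjusted p under 0.05, and all 5 differences were below 0. With 15.4% of all probe sets called in either direction, 0 of 5 is near the background. At an unadjusted p under 0.05, 27.3% of all probe sets passed. Hes1, a repressor of the basic helix-loop-helix family and the classic readout of Notch signalling, read 427, 172, 321, 492, 463 and 380 in tumours 1 to 6 and 456, 398 and 454 in the muscles. Tumour 2 was the lowest array and the other tumours lay near the muscles. Tumours had a mean of 376 ± 117 (SD, n = 6) against 436 ± 33.0 (SD, n = 3) for the muscles, with a difference of -0.27 and a 95% interval of -1.09 to 0.54.

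Hey1, a related repressor induced by Notch in many cell types, read 63.5, 284, 322, 343, 388 and 622 in tumours 1 to 6 and 374, 389 and 278 in the muscles. Tumour 1 was far below and tumour 6 above all muscles, and the other 4 tumours overlapped with them. The difference was -0.25 with a 95% interval of -1.41 to 0.90. Heyl, the third gene of this family, was read by 3 probe sets. The brightest, 1419302_at, read 457, 388, 351, 412, 301 and 614 in tumours 1 to 6 and 380, 428 and 485 in the muscles, with a difference of -0.06 (95% interval -0.79 to 0.66). The probe set 1438886_at read 94.6, 348, 49.0, 316, 40.4 and 202 in tumours 1 to 6 and 291, 271 and 351 in the muscles, so that tumours 2 and 4 were within the muscle range and tumours 1, 3, 5 and 6 below it. Its difference was -1.10 (95% interval -2.42 to 0.21), and 1419303_at was dim on all arrays, from 16.8 to 86.4. Without rescaling 4 of these 5 differences were above 0, from 0.40 to 0.75, and that of 1438886_at was -0.31. The 3 pairs of targets had exact permutation p of 0.571 to 0.929, and the log2 ratio of Hes1 to Hey1 differed by -0.02. These intervals do not show that target levels were equal in tumour and muscle: they allow a Hes1 change from -1.09 to 0.54.

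**Figure D3:**
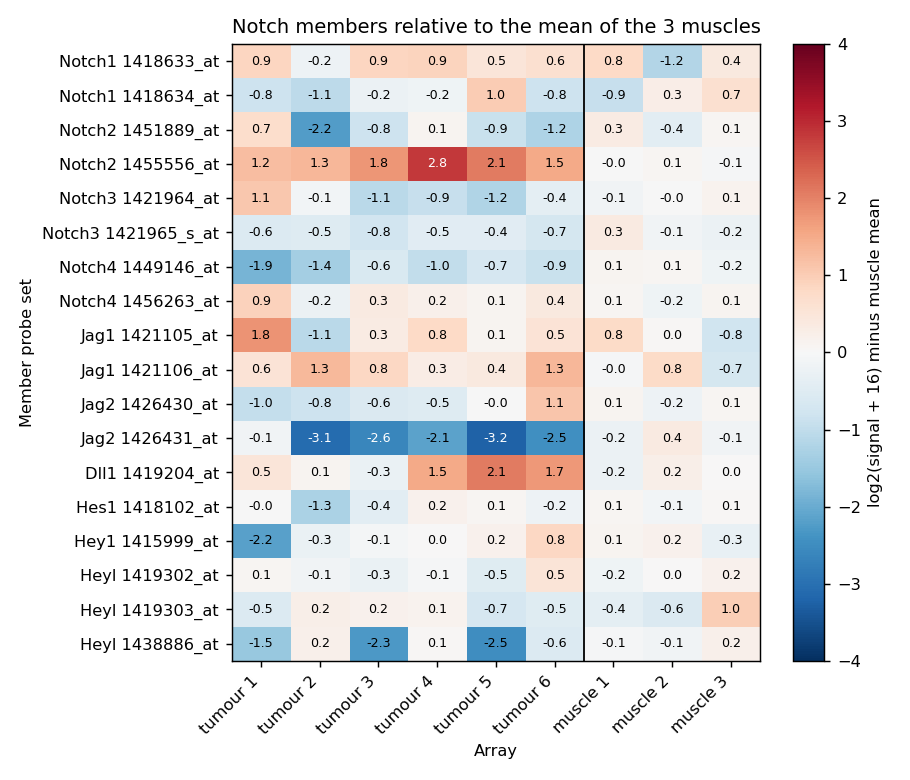
Each member probe set on each array, as log2(signal + 16) minus the mean of the 3 muscles (red above, blue below, with the value in each cell). Notch2 1455556_at is above the muscles in all 6 tumours, Jag2 1426431_at is below in tumours 2 to 6, Dll1 is high in tumours 4 to 6, and Hey1 is low in tumour 1.

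The tumours differed from one another more in some members than in others. Where every tumour was above 276, the highest median signal of an array, the highest tumour exceeded the lowest 5.36-fold for Dll1, 4.26-fold for Notch1 1418634_at, 3.08-fold for Notch2 1455556_at, 2.04-fold for Heyl 1419302_at and 1.25-fold for Notch3 1421965_s_at. The lowest tumour was at 12.7 for Jag2 1426431_at, 48.4 for Notch2 1451889_at, 63.5 for Hey1 and 59.2 for Jag1 1421105_at, signals that can be background, so no ratio is given for these. Tumour 1 was the highest tumour for 5 of the 18 member probe sets, where it was the highest for 38.3% of all probe sets. Tumour 2 was the lowest for 6 of 18, against 37.8% of all. Tumour 6 was the highest for 4 of 18 and the lowest for 0, against 10.4% and 13.5% of all. These counts were not tested.

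Of 59 other genes of the pathway, listed by role, 50 were measured. Each was described by its brightest probe set: 5 were higher, 3 were lower and 42 were not called, with a median difference of 0.06. On that basis 8.40% of 12393 genes were called higher and 8.77% lower, with a median of 0.10, so these shares are near the background. Without rescaling 9 were higher and 1 lower. Leaving out muscle 1, muscle 2 or muscle 3 left 1, 1 and 2 higher.

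**Figure D4:**
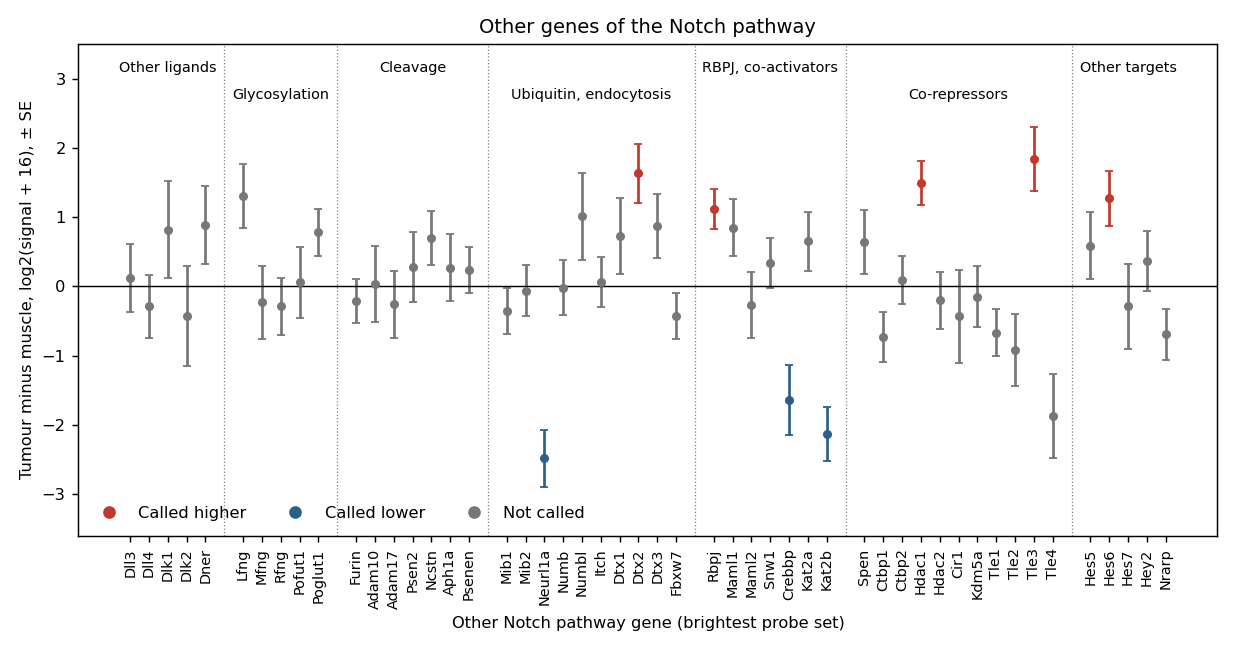
Tumour minus muscle difference (log2 scale, ± SE) of 50 other Notch pathway genes, grouped by role, with called genes coloured. Rbpj, Dtx2, Hdac1, Tle3 and Hes6 were called higher and Neurl1a, Crebbp and Kat2b lower, and the ligand, glycosylation and cleavage groups held 0 called genes.

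In the nuclear complex, Rbpj, which encodes the DNA-binding partner of all Notch receptors, was higher by both of its probe sets. The brighter, 1448957_at, read 1297, 913, 1101, 1290, 1288 and 1372 in tumours 1 to 6 and 573, 496 and 569 in the muscles. Every tumour lay above every muscle, with a difference of 1.12 ± 0.29 (SE, 2.17-fold, adjusted p = 0.018, limma). The second, 1418114_at, lay between 295 and 831 in tumours and between 83.1 and 251 in muscles and differed by 1.58 ± 0.45 (SE, adjusted p = 0.029, limma). The call of the brighter probe set was lost without muscle 1, muscle 2 or muscle 3 (adjusted p of 0.058, 0.10 and 0.082). Of the 7 measured genes for RBPJ and its co-activators, the acetyltransferase genes Kat2b and Crebbp were lower, at -2.13 ± 0.39 and -1.64 ± 0.50 (log2 ± SE). Kat2b read 363 to 1523 in tumours and 3623 to 4176 in muscles. Its call was lost without rescaling (adjusted p = 0.092), and that of Crebbp without any 1 of the muscles or tumour 3 (0.054 to 0.16), without rescaling (0.32), with quantile normalization (0.058), with median centring (0.076) and without the intensity trend (0.052).

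Of 11 co-repressor genes 2 were higher and 0 were lower. The histone deacetylase gene Hdac1 rose 2.81-fold, from 522 ± 98.8 in muscles (SD, n = 3) to 1518 ± 398 in tumours (SD, n = 6), and was called in all 21 alternatives, with adjusted p of at most 0.048 (limma). Tle3, a Groucho-family co-repressor through which Hes proteins act, rose 3.58-fold, with 290 to 1222 in tumours and 146 to 203 in muscles. Of its 3 probe sets this one was called, and the call was lost without muscle 1 (adjusted p = 0.063), muscle 2 (0.055) or muscle 3 (0.05) and with averaged probe sets (0.054). By their brightest probe sets Tle1, Tle2 and Tle4 of the same family were below 0 and not called. They differed by -0.67, -0.92 and -1.87 (adjusted p of 0.23, 0.28 and 0.054, limma). Tle4 was called lower in some alternatives, among them without tumour 1 (adjusted p = 0.037). The second Tle1 probe set, 1422751_at, differed by 0.83 in the other direction (adjusted p = 0.24, limma). The second Tle4 probe set, 1425650_at, differed by -0.82 (adjusted p = 0.29, limma).

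Of 10 genes that act on ubiquitination and endocytosis, Neurl1a, an E3 ligase gene of the Neuralized family that acts on Notch ligands, was lower, and Dtx2, a Deltex E3 ligase gene, was higher. Neurl1a read 239 to 481 in tumours and 997, 2559 and 3166 in muscles, a 5.58-fold fall (adjusted p = 0.00091, limma). Its 3 dimmer probe sets were also below 0 but not called, and with all 4 averaged the difference was -1.32 (adjusted p = 0.054). Dtx2 rose 3.09-fold by its probe set 1439429_x_at, a type of probe set that can bind related transcripts, and the call was lost without muscle 1 (adjusted p = 0.063) or muscle 2 (0.11) and with median centring (0.055).

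The 7 measured genes of receptor cleavage, 5 of glycosylation and 5 other ligands held 0 calls (limma), and at an unadjusted p under 0.05 there were 0, 2 and 0. Of all probe sets 15.4% were called and 27.3% had an unadjusted p under 0.05. Lfng, the Fringe glycosyltransferase that sets which ligands a receptor answers to, read 155 to 590 in tumours and 94.8 to 207 in muscles. Its difference of 1.30 ± 0.46 (SE) had an adjusted p of 0.072 and was called in 5 of 21 alternatives, among them quantile normalization (adjusted p = 0.046) and leaving out tumour 2 (0.017). Dll4, a ligand of endothelial cells, read 119 to 305 in tumours and 142 to 346 in muscles and differed by -0.29 ± 0.45 (SE).

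Of 5 other genes listed as targets Hes6 was higher. Whether Notch induces Hes6 in these tissues was not tested. Its probe set 1436050_x_at read 276 to 828 in tumours and 133 to 235 in muscles, with a difference of 1.27 ± 0.40 (SE) and an adjusted p of 0.048 (limma). Like that of Dtx2, this probe set is of a type that can bind related transcripts. The call was lost in 13 of 21 alternatives, and the second Hes6 probe set differed by -0.43. HES6 is known in myoblasts as an antagonist of HES1. Hes6 was called without tumour 1 and without tumour 2, and lost without any other 1 array (adjusted p of 0.054 to 0.22). Nrarp, a feedback inhibitor, differed by -0.69 ± 0.37 (SE), with an adjusted p of 0.25.

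Notch switches on genes of the Hes and Hey families through RBPJ, which recognizes DNA with the core word GTGGGAA. RefSeq promoters (GRCm38.p6) were taken from 250 bases before the start to 50 after. Those of the receptors, the ligands and the 5 other genes listed as targets were searched for this word on both strands. Those of Hes1, Hey1 and Heyl were not used here. Of 32851 promoters 6.38% held it, and 0.256% held it at least 2 times. Hes5 and Hey2 each held it 2 times, at -226 and -83 and at -207 and -4 bases from the start (first base of the word), and Hes7 held it 1 time. The windows of Hes6 and Nrarp, and those of the 4 receptors and 3 ligands, held 0. The first 260 bases of both promoters with 2 words are shown, 5' to 3' on the gene's strand, with the words in capitals (on the other strand the word reads TTCCCAC). They lie at chr4:154960673-154960932 on the plus strand and chr10:30842774-30843033 on the minus strand.
Hes5: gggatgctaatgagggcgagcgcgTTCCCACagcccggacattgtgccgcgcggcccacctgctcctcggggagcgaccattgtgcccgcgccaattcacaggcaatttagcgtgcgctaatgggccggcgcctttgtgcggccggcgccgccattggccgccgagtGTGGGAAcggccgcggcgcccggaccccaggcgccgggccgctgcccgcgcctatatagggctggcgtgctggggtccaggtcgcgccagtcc
Hey2: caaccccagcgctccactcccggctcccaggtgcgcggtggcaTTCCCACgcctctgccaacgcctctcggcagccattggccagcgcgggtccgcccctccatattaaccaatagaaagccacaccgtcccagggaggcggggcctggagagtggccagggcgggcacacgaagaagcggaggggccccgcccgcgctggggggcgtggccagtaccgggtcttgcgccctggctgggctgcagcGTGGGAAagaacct
A word in a promoter is a description and not a measured binding site. Hes5, a target of Notch in neural cells, read 16.1 to 86.5 in tumours and 18.1 to 55.6 in muscles by its brighter probe set. Hey2, a target in vessels and heart, read 4.27 to 56.4 in tumours and 5.45 to 27.9 in muscles, with a difference of 0.37 ± 0.43 (SE). Both lay well under the median signal of every array, so a change in either could have gone unmeasured.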

How the data were processed

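The value table deposited by the authors holds a MAS5 signal intensity on a linear scale for each probe set. The tool name comes from the submitters' processing notes, which give no version. Total RNA was isolated by Trizol followed by RNAeasy and biotin-labelled, per the labels' protocols. No label states a scaling target, a filter or a scan date, and detection calls did not enter. The 2% trimmed mean was 500.2 on 7 arrays, 294.3 on muscle 1 and 140.9 on muscle 3, so each array was multiplied to the median of these means. Of 22690 probe sets 64 controls were left out, 20380 had 1 gene symbol, 691 several and 1555 none. For 20351 of the probe sets with 1 symbol the gene identifier was found in a RefSeq table (GRCm38.p6), and 0 symbols were changed by it. Promoters were RefSeq promoters of the same build.

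Differences were tested on log2(signal + 16) with lmFit and eBayes of limma 3.58.1 (R 4.3.3), fitted to 22626 probe sets on 9 arrays with an intensity trend and Benjamini-Hochberg adjustment. Ratios of 2 probe sets were tested by exact permutation over 84 splits, two-sided. The fit was also run on simulated normal values with equal spread in both groups, a setting these signals need not meet. No result here rests on that run. The members and lists were chosen with earlier results of these data known. All members are named; of the other pathway genes, all those called and Dll4, Hes6, Hey2, Lfng and Rbpj are named, and other genes named were chosen after their values were seen. The pairs of probe sets of one gene were also compared after the data had been seen. Alternatives were 3 normalizations (quantile, median centring, none), offsets of 1 and 64, a filter on dim probe sets, the brightest probe set or the mean per gene, no trend, a weight per group, a replicate block, leaving out each array, and leaving out tumours 1 and 4. The number of arrays limits the precision.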

Additional observations from a re-analysis of the deposited data

Results flagged for a closer look

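In 5 probe sets 1 tumour lay far from the other 5, with a gap to its neighbour that was large against the range of the 6 tumours on the linear signal scale; 29 probe sets were examined. Chance gives such a gap in about 1 of 20 groups of normally distributed values, a rate that need not hold for signals on a linear scale, and all 5 stood out on the high side. Tumour 5 had a signal of 1501 for Notch1 1418634_at, against at most 666 in the other tumours. Tumour 1 had 455 for Notch3 1421964_at, against at most 190. For Jag2, tumour 1 had 226 by 1426431_at, against at most 45.3, and tumour 6 had 689 by 1426430_at, against at most 304. Tumour 1 had 828 for Hes6 1436050_x_at, against at most 482. On the scale of log2(signal + 16), chosen after seeing the data, 3 probe sets stood out. They were Jag2 1426431_at, again with tumour 1 (gap over range 0.64), Hey1, where tumour 1 was low at 63.5 (0.64), and Notch1 1418633_at, where tumour 2 was low (0.63). The other 4 of the 5 did not stand out on that scale (0.50 to 0.56). Their causes were not tested.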

How the results depend on the processing

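Under 21 alternatives Notch2 1455556_at stayed above 0 and was called in 20, with adjusted p from 0.00051 to 0.41 (limma). Jag2 1426431_at entered 18 of the alternatives, stayed below 0 in all 18 and was called in 13 (adjusted p from 0.00057 to 0.12). The number of probe sets called was 2200 with 1 probe set per gene and 2103 with their mean, where 12393 genes were tested, and 1700 to 4369 when 1 array was left out. The number of members called higher was 2 without rescaling, 0 with the mean per gene and 1 without any 1 array. The number called lower was 0 without rescaling, when only the brighter probe sets were kept and with 1 probe set per gene (both leave out the called Jag2 probe set) and with the replicate block, and 0 to 1 without 1 array. Of the other pathway genes 9 were higher and 1 lower without rescaling, 3 were higher with the mean per gene, 2 were higher with the block, and 1 to 6 were higher and 2 to 4 lower without 1 array. Of the 12 same-role pairs 5 had an exact permutation p under 0.05, 3 with the mean per gene and 3 to 4 without 1 tumour. The 3 with the mean per gene included Jag1 to Jag2, which was not among the 5. Without 1 muscle or without tumours 1 and 4 the test cannot reach 0.05 and was not counted. The replicate numbers were not taken as pairs. Deviations of same-numbered tumours and muscles correlated at 0.213, 0.164 and -0.021. Muscle 1 and muscle 2 correlated best with the tumour of the same number, and muscle 3 correlated best with tumour 6 (0.07). With the replicate block 2412 probe sets were called and Rbpj, Tle3, Hes6 and Jag2 were not (adjusted p of 0.16, 0.15, 0.19 and 0.12). Causes were not tested. Signals under the array median limit what can be said of Hes5, Hey2 and the dim Jag1, Jag2 and Heyl probe sets.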
